A study of Mus musculus with 6 samples.

Results

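Cell cycle and proliferation genes were followed in RNA of spinal cord microglia, the macrophages that live in brain and cord tissue. The set is a list of 40 named genes: 16 of the G1/S transition and S phase, 22 of G2 and mitosis, and 2 others, Stmn1 and Mybl2. Each symbol was matched to an Ensembl identifier in the deposited count table, which lists 55401 genes, and 40 of the 40 passed the filter on low counts that left 16248 genes for testing. The cells were taken with CD11b-coated beads from untreated mice aged 7 months. One group was non-transgenic C57BL/6 mice (NTg). The other was heterozygous double mutants (ATXN2-Q33;TDP-43), labelled as knock-in hATXN2-Q33 with hTDP-43, the human genes for ataxin-2 with an expanded glutamine tract and for TDP-43; the promoter that drives the human TDP-43 is not given in the sources used here. Each group had 3 libraries, each from the pooled microglia of 3 spinal cords, so the groups are 9 animals each and the replicates are separate pools. Libraries are named by the number in their titles: NTg replicates 7, 9 and 11, and mutant replicates 8, 10 and 12. The question is whether the RNA of dividing cells differs between the genotypes, and how the genes of the 2 phases vary between libraries.

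Dividing cells switch their cell cycle genes on in waves. E2F transcription factors, released from the retinoblastoma protein late in G1, turn on genes that copy DNA: the cyclins E with CDK2, the loading factor CDC6, the MCM helicase, the sliding clamp PCNA and the enzymes that make deoxynucleotides. In G2 the factors B-MYB (Mybl2) and FOXM1 turn on the genes of mitosis, among them cyclin B with CDK1, the Aurora and Polo kinases, the centromere proteins and the spindle motors. Resident microglia renew themselves by slow local division, so few cells in adult tissue cycle at a given moment. PCNA, the MCM proteins and CDK2 also occur in cells that are not in mitosis, whereas Mki67, Top2a and the mitotic cyclins are used as marks of cycling cells.

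Library totals ran from 12553570 to 22854628 counts, with NTg replicate 11 the deepest. Levels are given in CPM, the count of a gene as a rate per library size, with sizes scaled by TMM, edgeR's correction for composition. The defining microglial genes P2ry12 and Tmem119 stood at 599.9 to 834 and 373 to 627 CPM, in keeping with the label. RNA of other cells was present too, as given beside the results it moves with. The file headers name the alignments of NTg replicates 7 and 9 as combined and those of the other 4 libraries not, so within the libraries that were not combined NTg rests on replicate 11 alone.

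The S phase genes varied less between libraries than the G2/M genes, and neither group of genes separated the genotypes. The S phase members summed to 288, 265 and 333 CPM across NTg replicates 7, 9 and 11, against 288, 266 and 298 CPM across mutant replicates 8, 10 and 12. The G2/M members summed to 140.1, 119.8 and 226 CPM across NTg, against 215.5, 163 and 124 CPM across the mutants. The groups overlap in both sums: NTg replicate 11 and mutant replicate 8 stood high for G2/M genes, and NTg replicate 9 and mutant replicate 12 stood low. By group the S phase sum was 295 ± 34.4 CPM in NTg and 284 ± 16.5 CPM among the mutants, and the G2/M sum 162 ± 56.5 and 167 ± 46.0 CPM (SD, n = 3 each). The highest library exceeded the lowest 1.26-fold for S phase and 1.89-fold for G2/M genes. In bulk RNA, fewer cycling cells and less of these transcripts per cell cannot be told apart.

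**Figure D1:**
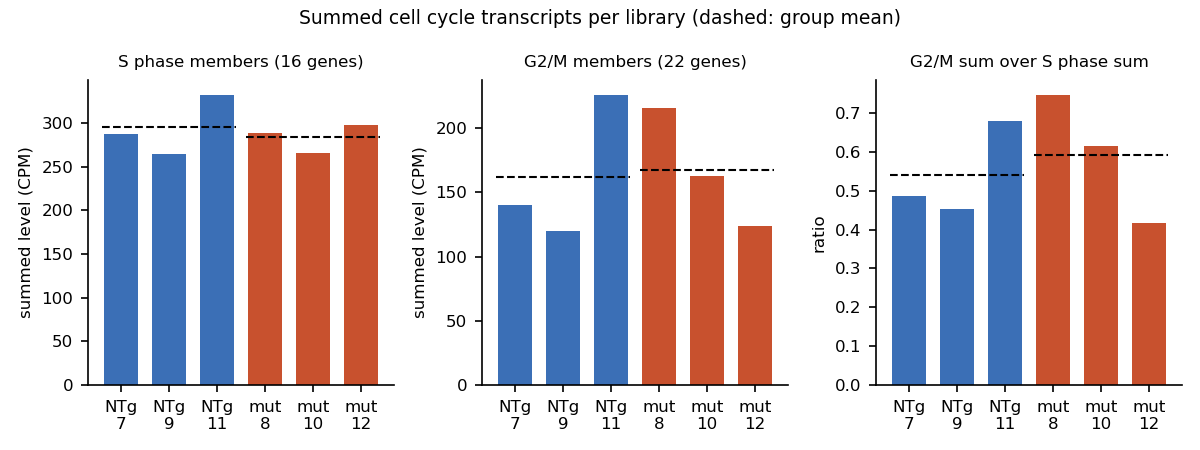
Summed level of the 16 S phase members (left) and of the 22 G2/M members (middle), in CPM, and the ratio of the G2/M to the S phase sum (right), for each NTg (blue) and ATXN2-Q33;TDP-43 (mut, orange) library, with dashed lines at the group means. The S phase bars lie between 265 and 333 CPM, and the G2/M bars between 119.8 and 226 CPM. In both sums the highest and the lowest library are NTg replicates 11 and 9, and the mutant libraries lie between them.

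The ratio of the G2/M to the S phase sum was 0.487, 0.452 and 0.680 across NTg replicates 7, 9 and 11, against 0.747, 0.614 and 0.416 across mutant replicates 8, 10 and 12. Its lowest and its highest value both came from mutant libraries. Single abundant genes carry much of each sum: Pcna made up 39.4% and Mcm3 20.8% of the S phase sum, and Mki67 33.3% of the G2/M sum. Without Pcna and Mcm3 the S phase sum still ran only from 105 to 133 CPM, a 1.26-fold range. Without Mki67 the G2/M sum ran from 81.9 to 143 CPM, a 1.75-fold range, with NTg replicate 11 and mutant replicate 8 again the highest.

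Most G2/M genes, and most S phase genes, stood high in the same libraries of each group. Of the 22 G2/M members, 17 were higher in NTg replicate 11 than in both other NTg libraries, and 17 were higher in mutant replicate 8 than in both other mutant libraries. NTg replicate 11 was the highest of all 6 libraries for 12 G2/M members and mutant replicate 8 for 5. NTg replicate 9 was the lowest for 8 and mutant replicate 12 for 6. Of the 16 S phase members, 13 were higher in NTg replicate 11 than in both other NTg libraries. Mutant replicate 8 exceeded both other mutant libraries for 10 of them. Among all 6 libraries, NTg replicate 11 was the highest for 8 S phase members and mutant replicate 8 for 4. The matching shares of all tested genes were not counted. The median deviation of the G2/M members from their own mean, on the log2(CPM + 0.5) scale, was 0.50 in NTg replicate 11, 0.40 in mutant replicate 8, -0.41 in NTg replicate 9 and -0.25 in mutant replicate 12. The S phase members deviated by 0.25 and 0.14 in the first of these pairs of libraries and by -0.08 and -0.11 in the second.

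**Figure D2:**
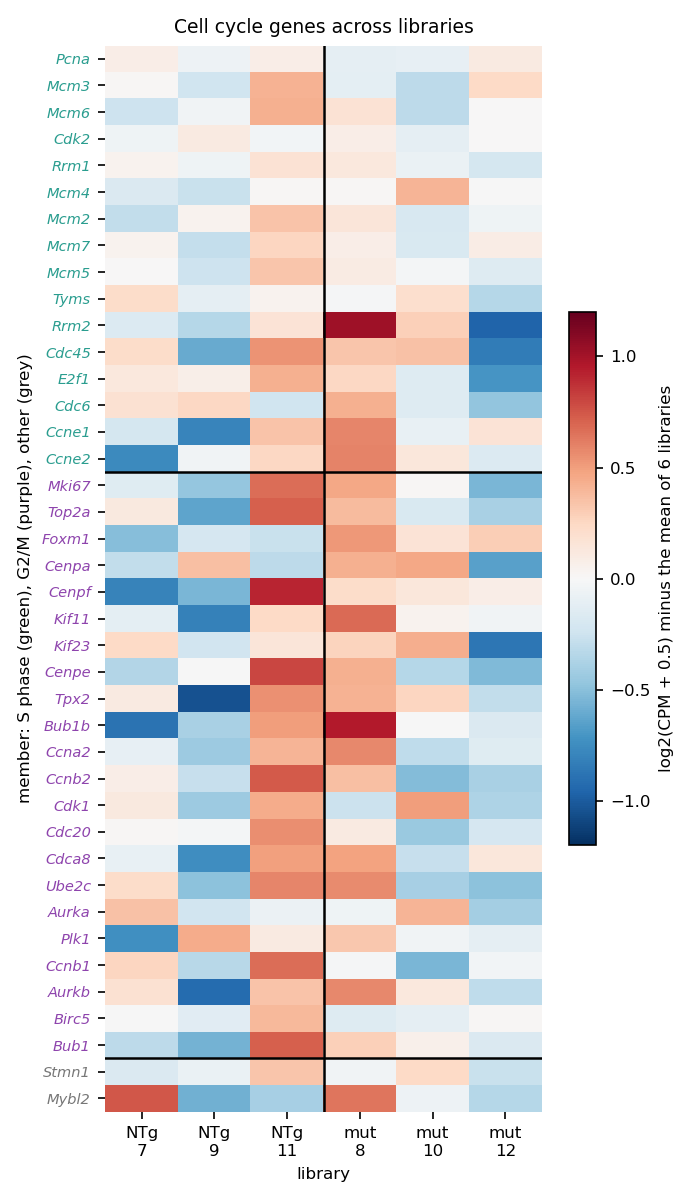
Level of each of the 40 members in each library, as log2(CPM + 0.5) minus its mean over the 6 libraries, with genes ordered by mean CPM within S phase (green), G2/M (purple) and other members (grey). The columns of NTg replicate 11 and mutant replicate 8 are mostly red in the G2/M block, where their median deviations were 0.50 and 0.40, and the upper S phase rows are pale.

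Spread was measured as the coefficient of variation (CV) of CPM within a genotype, pooled over both groups. Its median was 19.999% over the S phase members and 39.5% over the G2/M members, against 16.9% over all tested genes. The CV that counting alone gives had a median of 7.53% for the S phase and 14.9% for the G2/M members. Within one band of abundance, 10 to 100 CPM, the median CV was 15.7% for 7 S phase members, 36.5% for 6 G2/M members and 11.1% for all 6451 tested genes. Between 1 and 10 CPM it was 32.6% for 6 S phase members, 40.4% for 15 G2/M members and 28.9% for all 6789 tested genes. The highest library exceeded the lowest more than 2-fold for 21 of 22 G2/M members and for 6 of 16 S phase members. The 6 S phase genes are Rrm2, Cdc45, E2f1, Cdc6, Ccne1 and Ccne2, all under 4 CPM on average.

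**Figure D3:**
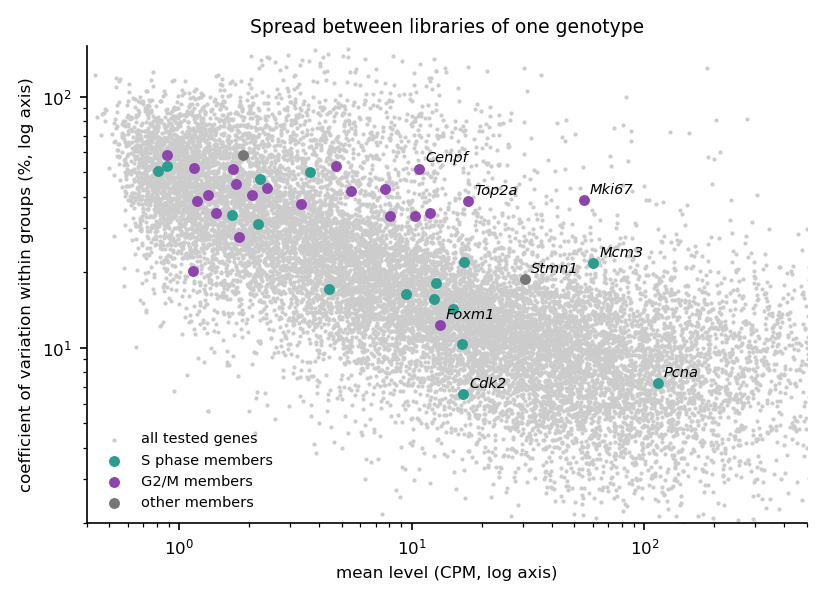
Coefficient of variation within groups (%, log axis) against mean CPM (log axis) for tested genes (grey; the axes leave out the most abundant genes and those with the smallest or largest CV) and for the S phase (green), G2/M (purple) and other (dark grey) members. Between 10 and 100 CPM, Mki67, Top2a and Cenpf lie at 38.7%, 38.5% and 51.7%, above Mcm3 at 21.8% and Cdk2 at 6.56%.

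Promoters are shown for 2 S phase genes with E2F words and for the 2 most abundant G2/M genes, because each phase group is known for its own promoter elements. They are the 250 bases before the RefSeq start on GRCm38.p6, 5′ to 3′, and 33 of the 40 members had an entry; Foxm1 had none. Capitals mark matches on either strand to E2F words (TTTCCCGC, TTTGGCGC, TTTCGCGC or TTTGCCGC), to the cell cycle homology region, CHR (TTTGAA or TTCGAA), or to CCAAT, the NF-Y box; neighbouring E2F words can overlap.
Mcm6 (chr1:128359706-128359955, minus strand): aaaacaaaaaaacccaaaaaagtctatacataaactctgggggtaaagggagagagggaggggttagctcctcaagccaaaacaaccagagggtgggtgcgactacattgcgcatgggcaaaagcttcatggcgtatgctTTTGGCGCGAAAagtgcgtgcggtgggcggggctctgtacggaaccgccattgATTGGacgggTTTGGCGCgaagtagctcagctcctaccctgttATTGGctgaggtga
Mcm5 (chr8:75109259-75109508, plus strand): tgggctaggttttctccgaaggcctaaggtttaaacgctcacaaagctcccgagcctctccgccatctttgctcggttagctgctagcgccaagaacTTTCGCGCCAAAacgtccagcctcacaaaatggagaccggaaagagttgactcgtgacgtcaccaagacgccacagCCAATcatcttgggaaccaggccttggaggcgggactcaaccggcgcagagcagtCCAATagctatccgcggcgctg
Mki67 (chr7:135716380-135716629, minus strand): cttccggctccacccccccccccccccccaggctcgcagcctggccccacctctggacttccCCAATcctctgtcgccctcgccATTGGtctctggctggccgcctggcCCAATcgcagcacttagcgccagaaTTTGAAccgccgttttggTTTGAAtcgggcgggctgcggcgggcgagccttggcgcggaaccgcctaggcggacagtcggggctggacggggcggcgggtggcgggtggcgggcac
Top2a (chr11:99024190-99024439, minus strand): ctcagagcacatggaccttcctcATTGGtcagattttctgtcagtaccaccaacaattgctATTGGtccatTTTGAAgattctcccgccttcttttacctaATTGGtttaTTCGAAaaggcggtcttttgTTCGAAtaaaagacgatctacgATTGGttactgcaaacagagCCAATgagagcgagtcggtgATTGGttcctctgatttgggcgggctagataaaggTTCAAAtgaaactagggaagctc
The Mcm6 window holds 3 E2F words, 2 of them overlapping, and 2 CCAAT boxes, and that of Mcm5 holds 2 overlapping E2F words and 2 CCAAT boxes. The windows of Pcna and Mcm3, the 2 most abundant S phase genes, are not shown and hold no E2F word. The Mki67 window holds no E2F word, 2 CHR words and 3 CCAAT boxes, and that of Top2a 4 CHR words and 6 CCAAT boxes. An E2F word occurred in 5 of 14 S phase promoters, in 1 of 18 G2/M promoters and in 3.50% of the 10634 promoters of tested genes. A CHR word occurred in 3 of 14, in 8 of 18 and in 12.2%, and a CCAAT box in 10 of 14, in 17 of 18 and in 36.4%. These matches describe the letters of the windows and were not related to binding.

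Between the genotypes no member passed the test. In the quasi-likelihood fit of edgeR, with p adjusted over all genes by Benjamini-Hochberg, 0 of 40 members had an adjusted p under 0.05, with 0% of all tested genes called. At an unadjusted p under 0.05 there was 1 member, Foxm1, higher in the mutants, against 2.26% of all tested genes, or 1.4% higher and 0.862% lower. DESeq2 called 0 members and 7 genes in all, 0.0431% of those tested, and 1 member, again Foxm1, had an unadjusted p under 0.05 in it; the voom fit of limma gave 0 called and the same 1. Libraries of the 2 genotypes did not overlap for 1 member, Foxm1, against 6.85% of all tested genes, or 3.27% higher and 3.58% lower in the mutants. The log2 fold change (FC), mutant minus NTg, was positive for 4 and negative for 12 of the S phase members and positive for 10 and negative for 12 of the G2/M members, against 52% positive over all tested genes. Its median was -0.08 for S phase, and for G2/M -0.02, or 0.01 when library totals were not scaled, against 0.01 over all tested genes. The 95% interval included 0 for 39 of the 40 members. Those intervals were wide for the G2/M genes: the median standard error was 0.45 on the log2 scale, against 0.21 for S phase.

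Both medians turned positive when NTg replicate 11 was left out. Without it the median log2 fold change was 0.10 for S phase, with 10 of 16 positive, and 0.19 for G2/M, with 17 of 22 positive. Without NTg replicate 9 the G2/M median was -0.20, with 5 of 22 positive, and without mutant replicate 12 it was 0.15, with 15 of 22 positive. With the combined alignments as a covariate, which leaves NTg replicate 11 to stand for its group, it was -0.48, with 4 of 22 positive. In that fit the combined alignments and the difference of NTg replicate 11 from the other NTg libraries cannot be told apart. No member was called in these fits.

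**Figure D4:**
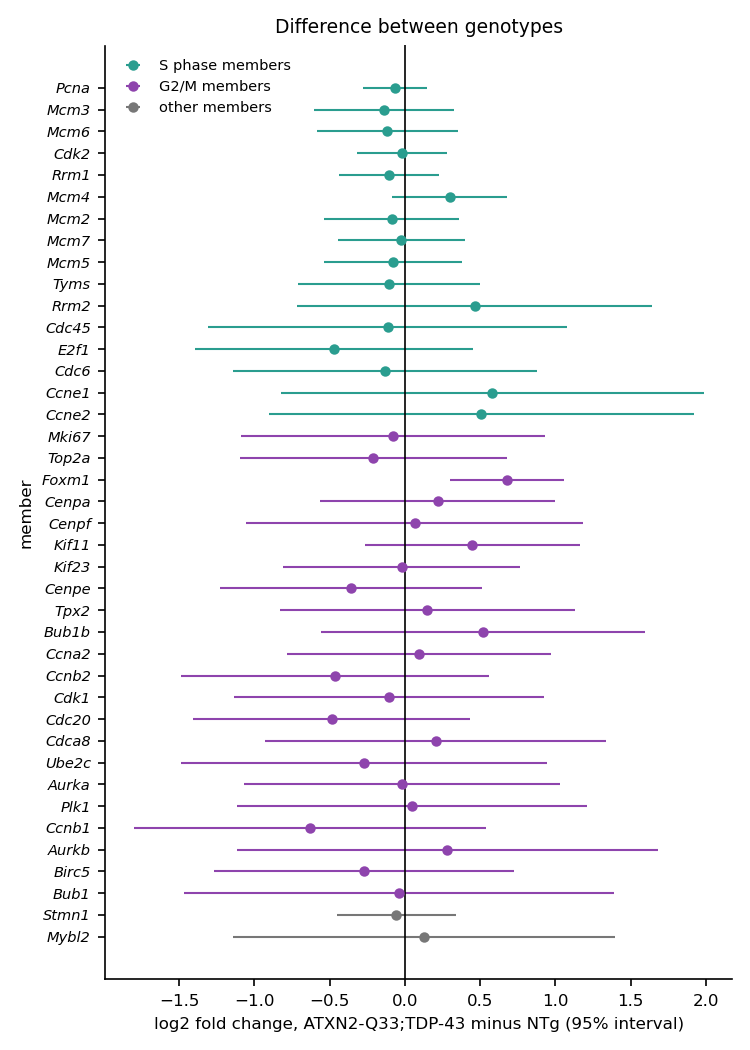
Log2 fold change of each member, ATXN2-Q33;TDP-43 minus NTg, with its 95% interval from the edgeR fit, in S phase (green), G2/M (purple) and other (grey) members. The intervals of 39 members cross 0; that of Foxm1 runs from 0.30 to 1.05.

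Foxm1 codes for the forkhead transcription factor of G2/M genes and was the member that differed most by p. It measured 8.78, 11.1 and 10.5 CPM across NTg replicates 7, 9 and 11, against 18.5, 14.4 and 15.8 CPM across mutant replicates 8, 10 and 12. All mutant libraries were above all NTg libraries. The means were 10.1 ± 1.197 and 16.2 ± 2.08 CPM (SD, n = 3 each), and the fitted log2 FC was 0.68 (SE 0.17, 95% interval 0.30 to 1.05), with an edgeR unadjusted p of 0.00284 and an adjusted p of 0.9996. The exact two-sided permutation p was 0.1, the smallest that 3 against 3 libraries allow. Leaving out 1 library at a time gave 0.58 to 0.75. With a block term that joins library 7 to 8, 9 to 10 and 11 to 12, neighbours in sample code that the labels do not name as pairs, its edgeR adjusted p was 0.0945. Its CV of 12.3% was the lowest of the G2/M members.

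Foxm1 (ENSMUSG00000001517.14) lies on the plus strand of mm10 at chr6:128362967-128376146. Some of its exons overlap those of Tex52 and Gm44596 on the same strand, and a fragment in the overlap was counted for each gene. Tex52 had 3, 14 and 4 counts across NTg, against 7, 23 and 27 across the mutants, and Gm44596 had 6, 7 and 9 and 1, 19 and 23. Taking all of these from the Foxm1 counts leaves 8.05, 9.68 and 9.94 CPM across NTg, against 17.9, 11.5 and 13.2 CPM across the mutants, still without overlap, a log2 ratio of the means of 0.62; this check was added after the data were seen. Within 2 Mb on either side, 6 of 39 other tested genes had an unadjusted p under 0.05, 1 higher and 5 lower in the mutants, or 15.4% against 2.26% of all tested genes. Within 10 Mb it was 15 of 177, 6 higher and 9 lower. The part of that neighbourhood in the Foxm1 values was not tested.

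**Figure D5:**
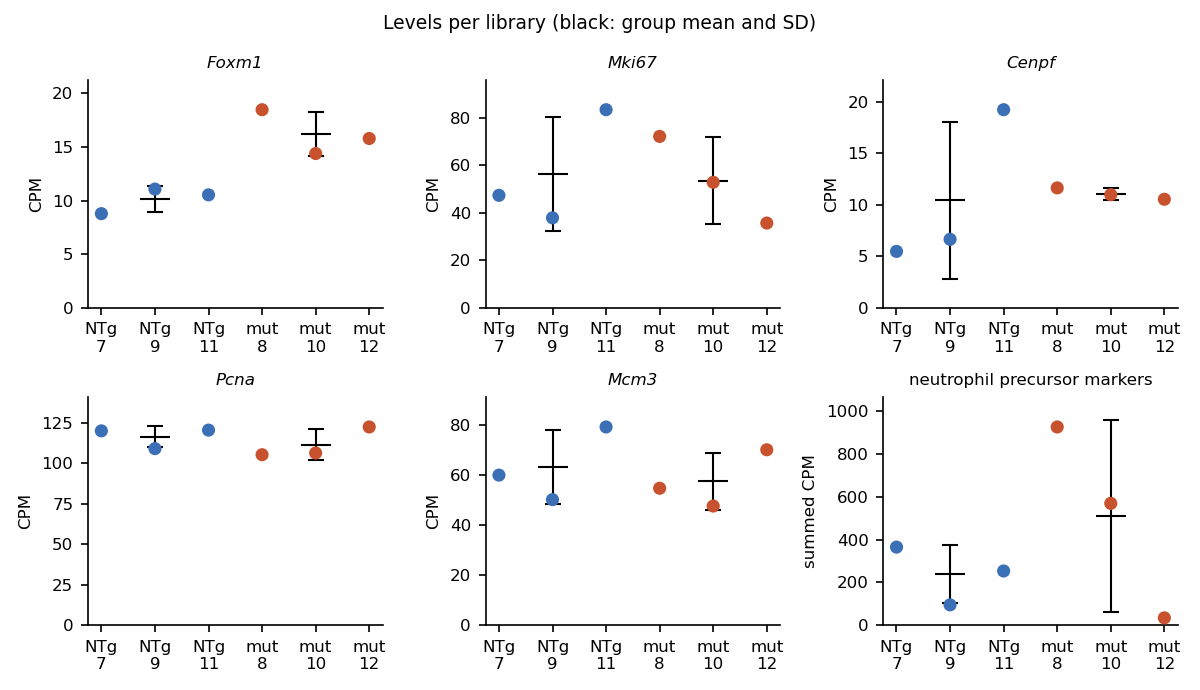
CPM of Foxm1, Mki67, Cenpf, Pcna and Mcm3 and the summed CPM of 11 neutrophil precursor markers in each NTg (blue) and ATXN2-Q33;TDP-43 (mut, orange) library, with the group mean and SD in black. Foxm1 is the panel of these 6 in which the groups do not overlap; mutant replicate 8 is high for Mki67 and for the precursor markers, at 72.2 and 927 CPM.

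No other G2/M member separated the genotypes as Foxm1 did. Ccnb1, which codes for cyclin B1, measured 1.45, 0.791 and 2.09 CPM across NTg replicates 7, 9 and 11, against 1.11, 0.611 and 1.09 CPM across mutant replicates 8, 10 and 12, with a fitted log2 FC of -0.63 (SE 0.52). Plk1, the Polo kinase that starts mitotic entry, had 0.05 (SE 0.52), Aurkb 0.28 (SE 0.62) and Birc5 -0.27 (SE 0.44). The libraries of the genotypes overlapped for each of these genes. Cenpf, a large kinetochore protein, measured 5.48, 6.65 and 19.2 CPM across NTg, against 11.6, 10.99 and 10.5 CPM across the mutants. The mutant libraries were close together and lay between the NTg libraries, so its log2 fold change of 0.07 (SE 0.47) became 0.87 (SE 0.21, unadjusted p 0.00358, edgeR adjusted p 0.9995) without NTg replicate 11 and -0.80 (SE 0.23) with the combined alignments as a covariate. Cenpf was singled out after its values were seen.

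Mki67, the antigen Ki-67 that coats mitotic chromosomes, was the most abundant G2/M member. It measured 47.4, 37.9 and 83.4 CPM across NTg replicates 7, 9 and 11, against 72.2, 52.9 and 35.7 CPM across mutant replicates 8, 10 and 12. The groups overlapped over nearly their whole range, and the means were 56.2 ± 24.0 and 53.6 ± 18.3 CPM (SD, n = 3 each). Its fitted log2 FC was -0.08 (SE 0.40, 95% interval -1.09 to 0.93), and 0.33 without NTg replicate 11. Top2a, the topoisomerase that untangles sister chromatids, measured 18.04, 10.5 and 27.6 CPM across NTg, against 21.7, 14.6 and 12.6 CPM across the mutants, in the same order of libraries within each group. Its fitted log2 FC was -0.21 (SE 0.37, 95% interval -1.09 to 0.68), and 0.19 without NTg replicate 11.

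The centromere and spindle genes showed the same spread with some exceptions. Cenpa, the histone H3 variant of centromeres, measured 9.26, 14.8 and 9.12 CPM across NTg, against 15.6, 16.01 and 7.12 CPM across the mutants, so here NTg replicate 11 was low. Its fitted log2 FC was 0.22 (SE 0.34). Kif11, the kinesin that pushes spindle poles apart, measured 9.02, 5.40 and 11.7 CPM across NTg, against 16.1, 10.2 and 9.56 CPM across the mutants, with a log2 fold change of 0.45 (SE 0.31, edgeR unadjusted p 0.187). Kif23, a kinesin of the cleavage furrow, measured 9.18, 6.46 and 8.58 CPM across NTg, against 9.35, 10.6 and 3.999 CPM across the mutants. Summed, Kif11, Kif23 and the spindle assembly factor Tpx2 ran from 14.1 CPM in NTg replicate 9 to 32.5 CPM in mutant replicate 8. Cenpe, the kinesin of kinetochores, measured 5.56, 7.18 and 12.9 CPM across NTg, against 9.87, 5.56 and 4.83 CPM across the mutants, with a log2 fold change of -0.36. Cenpa, Cenpe and Cenpf together ran from 20.3 CPM in NTg replicate 7 to 41.3 CPM in NTg replicate 11.

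The regulators of mitotic entry and exit were rare. Ccna2, Ccnb1, Ccnb2 and Cdk1, which code for the mitotic cyclins and their kinase, summed to 9.02, 6.13 and 13.5 CPM across NTg replicates 7, 9 and 11, against 10.8, 7.53 and 6.96 CPM across mutant replicates 8, 10 and 12. Birc5, Aurkb and Cdca8, 3 subunits of the chromosomal passenger complex, summed to 3.95, 2.11 and 5.67 CPM across NTg, against 5.34, 3.53 and 3.79 CPM across the mutants. The spindle checkpoint genes Bub1 and Bub1b with Cdc20 and Ube2c, which drive the destruction of cyclin B, summed to 6.36, 6.26 and 13.4 CPM across NTg, against 14.4, 7.40 and 6.86 CPM across the mutants. In these 3 groups NTg replicate 9 was the lowest library and either NTg replicate 11 or mutant replicate 8 the highest. Bub1b, a checkpoint kinase, had the widest range among these genes above 2 CPM on average, from 2.09 CPM in NTg replicate 7 to 8.75 CPM in mutant replicate 8, with a log2 fold change of 0.52 and, without NTg replicate 11, of 1.08. Cdc20 and Ube2c had negative values, -0.49 and -0.27, as did Ccnb2 at -0.46 and Cdk1 at -0.11, and Ccna2 and Cdca8 positive ones, 0.09 and 0.21. Aurka, the Aurora kinase of spindle poles, took an order of its own, with its highest values, 2.04 and 1.93 CPM, in mutant replicate 10 and NTg replicate 7. Single members rested on few counts: Bub1 had 6 to 37 counts per library, Aurkb 5 to 33 and Ccnb1 9 to 46. Ccnb1 and Ccnb2 also have listed pseudogenes, and reads that align to several places were not counted.

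Pcna, the sliding clamp of DNA polymerases, was the most abundant member and among the steadiest. It measured 120.0, 109 and 120.5 CPM across NTg replicates 7, 9 and 11, against 105, 106 and 122 CPM across mutant replicates 8, 10 and 12. The groups overlap, and the fitted log2 FC was -0.06 (SE 0.09, 95% interval -0.28 to 0.15). Cdk2, the kinase of cyclins E and A, measured 15.9, 17.9 and 16.2 CPM across NTg, against 17.5, 15.3 and 16.6 CPM across the mutants, with a fitted log2 FC of -0.02 (SE 0.13, 95% interval -0.32 to 0.28). Its CV of 6.56% was close to the 6.12% that counting alone gives. Pcna has listed pseudogenes, so some of its reads may not have been counted.

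The 6 MCM genes, whose proteins form the ring of the replicative helicase, summed to 119, 109 and 159 CPM across NTg, against 126, 112 and 135 CPM across the mutants. Mcm3 measured 59.8, 50.1 and 79.1 CPM across NTg, against 54.6, 47.5 and 70.0 CPM across the mutants, with a log2 fold change of -0.14 (SE 0.20), and 0.07 without NTg replicate 11. Mcm6 measured 13.9, 16.1 and 22.5 CPM across NTg, against 18.8, 13.2 and 16.6 CPM across the mutants, with a log2 fold change of -0.12 (SE 0.21). NTg replicate 11 was the highest library for both genes and mutant replicate 10 the lowest. Mcm4 took another order, with 13.1, 12.3 and 15.1 CPM across NTg, against 15.1, 19.9 and 14.9 CPM across the mutants. It had the smallest p of the S phase members, with a fitted log2 FC of 0.30 (SE 0.17, 95% interval -0.08 to 0.68, edgeR unadjusted p 0.112). Mcm2, Mcm5 and Mcm7 had log2 fold changes between -0.09 and -0.02, and each was highest in NTg replicate 11. Per kilobase of exon, Mcm3 stood at 16.04 CPM and the other 5 subunits at 1.82 to 4.20 CPM.

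The genes that start S phase were low. E2f1, a founding E2F factor, measured 2.34, 2.24 and 3.00 CPM across NTg replicates 7, 9 and 11, against 2.60, 1.83 and 1.09 CPM across mutant replicates 8, 10 and 12, with a fitted log2 FC of -0.47 (SE 0.41). Ccne1, one of the cyclins E, had 8, 4 and 26 counts across NTg, against 20, 11 and 19 across the mutants, with a fitted log2 FC of 0.58 (SE 0.62). Neither differed beyond the spread of its libraries. Ccne2, the other cyclin E, ran from 0.242 CPM in NTg replicate 7 to 1.41 CPM in mutant replicate 8. Cdc6, which loads the helicase, ran from 1.04 to 2.37 CPM with its highest value in mutant replicate 8 and its lowest in mutant replicate 12. Cdc45, a part of the active helicase, ran from 0.935 CPM in mutant replicate 12 to 3.22 CPM in NTg replicate 11. Tyms, the thymidylate synthase, varied less, from 3.32 to 5.15 CPM. Rrm2, the subunit of ribonucleotide reductase whose level follows S phase, measured 2.90, 2.503 and 3.77 CPM across NTg, against 7.20, 4.14 and 1.45 CPM across the mutants, a 4.95-fold range. Its partner subunit Rrm1 ran from 14.1 to 18.5 CPM, a 1.31-fold range. Both had the order of the G2/M sum among the mutant libraries, Rrm1 with 17.95, 15.5 and 14.1 CPM across mutant replicates 8, 10 and 12. E2f1, Cdc6, Ccne2 and Mcm5 had that order too. Without mutant replicate 12 the log2 fold change of Rrm2 was 0.88 (SE 0.35, edgeR unadjusted p 0.0353, adjusted p 0.991).

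Of the 2 other members, Stmn1 codes for stathmin, which takes apart microtubules and is made by neurons as well as by dividing cells. It measured 26.8, 28.7 and 38.2 CPM across NTg, against 29.5, 35.8 and 25.0 CPM across the mutants, with a fitted log2 FC of -0.06 (SE 0.17). A small gene model, Gm23634, lies in its exon and had 30 to 90 counts, against 333 to 842 for Stmn1. Mybl2 measured 3.22, 0.988 and 1.18 CPM across NTg, against 2.97, 1.63 and 1.25 CPM across the mutants, with a fitted log2 FC of 0.13 (SE 0.56). NTg replicate 7 and mutant replicate 8 were its 2 highest libraries.

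Per kilobase of exon, the level of a member ran from 47.5 CPM for Pcna to 0.203 CPM for Bub1. Pcna was followed by Mcm3 at 16.04, Stmn1 at 15.96 and Mki67 at 5.46 CPM per kilobase, and Mcm3 and Stmn1 did not differ beyond their spread. The median was 1.66 CPM per kilobase for S phase and 0.854 for G2/M members. Of the 40 members, 15 stood above 10 CPM, 22 between 1 and 10 CPM and 3, Ccne1, Ccne2 and Bub1, under 1 CPM.

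Other genes of the cell cycle were read from further lists, chosen, like the members, with earlier results of these data known. Of 31 tested other S phase genes, 22 had a positive and 9 a negative log2 fold change, with a median of 0.07, and 0 reached an unadjusted p under 0.05. Among those with the smallest p was Hells, a chromatin remodeller, at -0.40 (SE 0.27). Of 34 tested other G2/M genes 15 were positive and 19 negative, with a median of -0.05 and 0 under an unadjusted p of 0.05. Ckap2, a spindle protein, had -0.97 (SE 0.48), the lamin B receptor Lbr 0.26 (SE 0.13) and G2e3 -0.33 (SE 0.20). Libraries of the genotypes did not overlap for 2 of the 34, Ckap2 and G2e3, both lower in the mutants, against 6.85% of all tested genes. This list holds genes such as Lbr and Ctcf that non-dividing cells also use; its sum ran from 890.1 to 1032 CPM, and its median CV was 19.3%.

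Among 29 tested G1 cyclins, CDK inhibitors and pocket proteins, 18 had a positive and 11 a negative log2 fold change, with a median of 0.07. Ccnd3, a cyclin D, measured 19.2, 16.1 and 29.96 CPM across NTg, against 29.75, 32.98 and 29.7 CPM across the mutants, with a fitted log2 FC of 0.50 (SE 0.21, edgeR unadjusted p 0.0481, adjusted p 0.9996). NTg replicate 11 lay among the mutant libraries. Cdkn1a, the inhibitor p21, measured 132, 123 and 123 CPM across NTg, against 112, 113 and 114 CPM across the mutants without overlap, with a fitted log2 FC of -0.16 (SE 0.08, unadjusted p 0.0728, adjusted p 0.9996). Ccnd2 had 0.52 (SE 0.26). All 10 tested genes of microglial growth signals had a negative log2 fold change, with a median of -0.07 and 0 under an unadjusted p of 0.05; Csf1, the growth factor of microglia, had -0.15 (SE 0.11), the myeloid factor Spi1 -0.09 (SE 0.08) and Csf2ra -0.09 (SE 0.11). Csf1r, the CSF1 receptor, is on this list and among the microglial markers.

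Replication-dependent histone mRNAs lack a poly(A) tail, and these libraries of rRNA-depleted total RNA can hold them. The list was taken by name, as genes with a symbol or synonym of the Hist1h, Hist2h, Hist3h or Hist4h form. Replication dependence and the lack of a poly(A) tail were not checked for each gene. Of these 69 genes 58 were tested, 35 with a positive and 23 with a negative log2 fold change and a median of 0.05. Their sum was 593, 486 and 660.3 CPM across NTg replicates 7, 9 and 11, against 729, 549 and 592 CPM across mutant replicates 8, 10 and 12. As for the G2/M genes, mutant replicate 8 and NTg replicate 11 were the highest and NTg replicate 9 the lowest. Mutant replicate 12 stood above mutant replicate 10, the reverse of their order in the G2/M sum. Hist1h1e, a linker histone, measured 80.1, 75.6 and 87.1 CPM across NTg, against 103, 92.0 and 94.5 CPM across the mutants without overlap, with a fitted log2 FC of 0.25 (SE 0.09, edgeR unadjusted p 0.0217, adjusted p 0.9996). Hist4h4 had 0.52 (SE 0.23) and Hist1h3b -0.76 (SE 0.38). Histone genes have near-identical copies, so their single values are uncertain.

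Markers of cells that divide or enter from blood moved between the same libraries in part. Neutrophil precursor markers summed to 365, 94.3 and 253 CPM across NTg replicates 7, 9 and 11, against 927, 569 and 33.4 CPM across mutant replicates 8, 10 and 12; of 11 markers 10 were tested and 10 had a positive log2 fold change. Mpo, the myeloperoxidase of granulocyte precursors, measured 29.5, 2.64 and 14.1 CPM across NTg, against 111, 28.2 and 2.44 CPM across the mutants. Within the mutants the precursor sum, Mpo and the G2/M sum had the same order of libraries, and NTg replicate 9 and mutant replicate 12 were low in all 3. Within NTg the orders differed, because NTg replicate 11 had the highest G2/M sum and less precursor RNA than replicate 7. In mutant replicate 8, Mpo, Elane, Prtn3 and Ctsg stood at 111, 19.4, 11.3 and 3.86 CPM, so most of the 927 CPM came from other markers of the list. The list shares Ltf, Camp and Ngp with the neutrophil markers and Chil3 with the monocyte markers, so these sums are not independent. The defining precursor marker Ctsg was at 0 counts in mutant replicate 12. The part of neutrophil precursors in the G2/M values was not tested.

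Neutrophil, monocyte and neuronal marker sums had the same order of libraries within each group as the precursor sum. Erythroid markers had that order among the mutants only, and the remaining lists took other orders. Neutrophil markers summed to 765 to 1277 CPM across NTg and 669.8 to 2404 CPM across the mutants, all 11 with a positive log2 fold change, and monocyte markers to 20.2 to 41.5 and 14.9 to 109 CPM, all 8 positive. Both had mutant replicate 8 highest and mutant replicate 12 lowest. Erythroid markers summed to 12.5 to 49.4 and 10.3 to 118 CPM, all 6 tested of 8 positive, with Slc4a1 at 0 in at least 1 library. Markers of oligodendrocyte precursors, which divide in the adult cord, summed to 14.98 to 38.4 and 10.3 to 48.9 CPM, 5 of 6 tested positive. This sum was highest in mutant replicate 10, with NTg replicate 11 at 15.9 CPM and Gpr17 at 0 in at least 1 library. Pdgfra on this list had 11 to 17 counts per library. It ran from 0.635 to 0.922 CPM across NTg and 0.779 to 1.26 CPM across the mutants, highest in mutant replicate 8. Oligodendrocyte markers ran from 182 to 1627 and 166 to 1112 CPM, and endothelial markers from 104 to 346 and 106 to 359 CPM. For both, as for the oligodendrocyte precursor sum, NTg replicate 9 and mutant replicate 10 were the highest of their groups. Ependymal markers ran from 13.2 to 24.6 and 22.1 to 72.2 CPM, all 6 tested of 8 positive, and astrocyte markers from 100.4 to 121 and 106 to 155 CPM. Neuronal markers ran from 16.9 to 19.2 and 15.3 to 30.4 CPM and border macrophage markers from 127 to 153 and 118 to 167 CPM. An edgeR unadjusted p under 0.05 was reached by 4 ependymal, 2 monocyte and 1 astrocyte marker, against 2.26% of all tested genes. These were higher in the mutants, and no other marker list held one. The astrocyte marker was Aqp4, at 3.38, 3.95 and 4.09 CPM across NTg, against 5.27, 11.3 and 8.31 CPM across the mutants. Its edgeR unadjusted p was 0.00423 and its adjusted p 0.9996. B cell markers ran from 131 to 149.96 and 116 to 135 CPM with Ms4a1 and Pax5 at 0 in at least 1 library, and T and NK cell markers from 0.862 to 1.32 and 0.675 to 2.24 CPM, each of 7 at 0 in at least 1 library. Of 10 microglial markers 3 were positive; they summed to 12132 to 15457 CPM across NTg and 10887 to 15869 CPM across the mutants. Mutant replicate 12 was the highest and NTg replicate 11 the next, although these 2 libraries stood at opposite ends of the G2/M sum within their groups. Vcan is on both the monocyte and the oligodendrocyte precursor list. The part of each of these lists in the values of the members was not tested.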

How the data were processed

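Per the file headers, the deposited counts are raw fragments per gene from featureCounts 1.6.1 (paired fragments, chimeric pairs left out, strand setting 2, GENCODE release vM25 on mm10), where a fragment that overlaps several genes counts for each and reads with several alignments are not counted. The submitters' processing notes name Trim Galore 0.4.1 for trimming, TopHat2 for alignment and DESeq2. Libraries were a stranded low-input kind made from RNA after rRNA depletion, per the labels' protocols. The table's 6 columns of other samples were not used. Exon lengths are as deposited, per the file headers.

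Symbols came from an identifier table, which matched 55141 of 55401 genes. Of the 40 members, 4 share a same-strand exon with another gene model. Genes were filtered with filterByExpr (minimum count 10) and the test was that of edgeR 4.0.16 under R 4.3.3 (sizes by TMM, robust quasi-likelihood, no covariates, Benjamini-Hochberg over all tested genes, threshold 0.05). Fold changes are unshrunk, standard errors come from the F statistic, and intervals use the t distribution. Exact permutation tests used log2(CPM + 0.5). DESeq2 1.42.0, limma 3.58.1 and other settings were alternatives. No library pair agreed within sampling noise (chi-square per degree of freedom 6.10 to 33.6). The edgeR step was tested on simulated counts. Promoters came from RefSeq, on GRCm38.p6.

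The members, lists, tests and alternatives were chosen with earlier results of these data known. All members may be named; library values are given for the 4 most abundant and the 3 smallest p of each phase, for Mki67, Top2a, Foxm1, Stmn1 and Mybl2, and fold changes for the 3 smallest p of each further list. Some genes of the further lists and marker lists are not reported here. Cenpf, Cenpe, Kif23, Bub1b, Aurka, Rrm2, other members given by range, Mpo and the sums by role were singled out after their values were seen.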

Additional observations from a re-analysis of the deposited data

How the results depend on the processing

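No member was called under any of the 15 alternatives run, which changed the normalization, filter, test, covariate, block or 1 library at a time. The number of all genes called was 0 in the main setting, 6 with no filter on low counts, 7 with DESeq2, 71 with the block of neighbouring sample codes, and 0 to 2 when 1 library was left out. The number of members at an unadjusted p under 0.05 was 1, rising to 3 when combined alignments entered as a covariate (Foxm1, Cenpf and Cenpe), and 1 to 3 when 1 library was left out. The G2/M median log2 fold change was -0.48 with that covariate, and -0.20 to 0.19 when 1 library was left out; the S phase median was -0.14 to 0.10. It also turned positive for G2/M at a minimum count of 30 (0.08, with 13 members left) and with the block (0.01). The median CV was 16.2% to 22.1% for S phase and 33.6% to 46.5% for G2/M when 1 library was left out. The signs of some uncalled fold changes turned with single settings: with the covariate Cdk2 was 0.025, Ccne1 -0.14, from 0.58 in the main setting, and Cenpf -0.80. Leaving out 1 library gave -0.24 to 0.87 for Cenpf, -0.31 to 0.069 for Mcm3, -0.26 to 0.12 for Mcm6, -0.062 to 0.033 for Cdk2, -0.35 to 0.33 for Mki67, -0.50 to 0.19 for Top2a, -0.20 to 0.12 for Stmn1 and -0.30 to 0.83 for Mybl2. Foxm1 kept its direction in all of its alternatives. For each of these changes the cause was not tested beyond the library or setting named. The labels give the groups no shared replicate numbers, so the block of neighbouring sample codes rests on no stated pairing. Depth limits the rarest members, with as few as 3 counts in a library.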
